A study of Mus musculus with 1528 samples.

Results

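The 144 cells described here were bone marrow–derived macrophages (BMDMs) with the highest transcript levels of *Ccl2*, *Ccl7* and *Ccl12*, the monocyte chemokines of the MCP family. They were chosen from 1439 kept cells, those with at least 200000 fragments on genes, at least 5000 genes found and at most 10% mitochondrial fragments. Each kept cell was given a score, the mean over the 3 genes of log2(CPM + 1), where CPM is the fragments of a gene per 1000000 fragments of that cell. The highest 10% of all kept cells by this score were the members, and the 1295 remaining kept cells were the other cells. The members were thus chosen by measured values, and their levels of the 3 genes describe the choice and are not a finding.

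BMDMs of 2 wild-type C57BL/6 mice (C57BL/6J in the methods of the study), grown from bone marrow with M-CSF, were stimulated for a day with IL4 and IL13 or with IL4, IL13 and TNF, each cytokine at 10 ng/ml. All cells therefore had IL4 and IL13, and the treatments differed in TNF. Live single cells were sorted into plates and sequenced by Smart-seq2, which reads full-length cDNA without molecular identifiers. Each mouse gave 384 wells of IL4+IL13 and 378 of IL4+IL13+TNF. The mouse was the replicate (n = 2), so there were 4 samples, and sets of 4 values below are in the order IL4+IL13 mouse 1, IL4+IL13 mouse 2, IL4+IL13+TNF mouse 1 and IL4+IL13+TNF mouse 2. Mouse 1 was sorted into plates 2 and 3 and mouse 2 into plates 4 and 5, and the study describes 2 independent experiments, so the mouse cannot be told apart from plate and experiment.

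CCL2, CCL7 and CCL12 are secreted chemokines that bind the receptor CCR2 and draw CCR2-bearing monocytes from the blood into tissue. Mouse *Ccl12* belongs to the same family as *Ccl2* and has no simple human equivalent. Macrophages transcribe these genes after many inflammatory cues, among them TNF acting through NF-kB, and interferons. IL4 and IL13 signal through STAT6 and induce the genes by which alternatively activated (M2) macrophages are known. From RNA sequencing of whole cultures, the study lists *Ccl2*, under immune regulation, among M2-linked mRNAs on which TNF had a negative effect.

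The 3 genes lie in the same chemokine cluster on the + strand of mouse chromosome 11 (mm10), *Ccl2* at chr11:82035571-82037453, *Ccl7* at chr11:82045712-82047525 and *Ccl12* at chr11:82101845-82103400. *Ccl11* lies between *Ccl7* and *Ccl12*. The next chemokine gene after *Ccl12*, *Ccl8* at chr11:82115185-82116799, encodes another chemokine of the MCP family and was not part of the score. The 250 bases before the start of *Ccl12* (chr11:82101595-82101844) and of *Ccl8* (chr11:82114935-82115184), from RefSeq on GRCm38.p6, the assembly of mm10, are shown because the levels of *Ccl8* follow the score below. The capitals mark the runs of 8 bases that the windows share at nearly the same distance from the start, and the last run holds the TATA box, TATAAA, found on the gene strand in 7.592% of 32851 mouse promoter windows.
Ccl12: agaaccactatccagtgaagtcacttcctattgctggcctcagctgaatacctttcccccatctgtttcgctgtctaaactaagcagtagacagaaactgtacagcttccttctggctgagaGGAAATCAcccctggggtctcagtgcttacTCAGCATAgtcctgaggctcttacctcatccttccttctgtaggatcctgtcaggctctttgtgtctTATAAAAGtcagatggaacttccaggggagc
Ccl8: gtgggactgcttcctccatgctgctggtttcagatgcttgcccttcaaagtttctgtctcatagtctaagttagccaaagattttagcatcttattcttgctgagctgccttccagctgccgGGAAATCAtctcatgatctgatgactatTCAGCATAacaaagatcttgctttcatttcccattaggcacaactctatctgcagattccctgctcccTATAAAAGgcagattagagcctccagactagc
The shared runs begin 128, 98 and 31 bases before the start of *Ccl12* and 128, 100 and 32 bases before that of *Ccl8*. How often other windows share such runs was not counted. The runs describe the letters of the windows and are not evidence that the genes are regulated alike. No windows of *Ccl2* and *Ccl7* were available.

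Depth was similar in the samples, with medians of 445699 to 489334 fragments per kept cell. Summed over the members, the samples held 28213149, 3350145, 27719834 and 13947161 fragments. The second sum came from 7 cells, and 1 member with 6122892 fragments made up 21.7% of the first. Both classes were macrophages by their markers. *Csf1r*, the M-CSF receptor, was found in 100% of members and 99.7% of other cells, *Adgre1* (F4/80) in 100% and 99.5%, and *Lyz2* in 100% of both.

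Over all samples together, members held a large part of the transcripts of the 3 genes. The median CPM of members was 1355 for *Ccl2*, 1736 for *Ccl7* and 267 for *Ccl12*, against 10.5, 6.42 and 0 in the other cells. Although they were 144 of 1439 cells, members held 46.4% of the summed CPM of *Ccl2*, 54.1% of that of *Ccl7* and 63.6% of that of *Ccl12*. These parts were smallest in IL4+IL13 mouse 2, at 8.17%, 18.1% and 28.3%. They were largest in IL4+IL13+TNF mouse 1, at 65.6%, 76.9% and 85.8%. The score at rank 144, the lowest member, was 8.58 and that at rank 145 was 8.57. The lowest member had 225, 533 and 466 CPM of *Ccl2*, *Ccl7* and *Ccl12*, and the next cell below it had 563, 545 and 178. The score therefore ran on without a gap through the limit, as the plot of every kept cell shows, and the highest member reached 12.57 where the median kept cell was at 3.30.

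**Figure D1:**
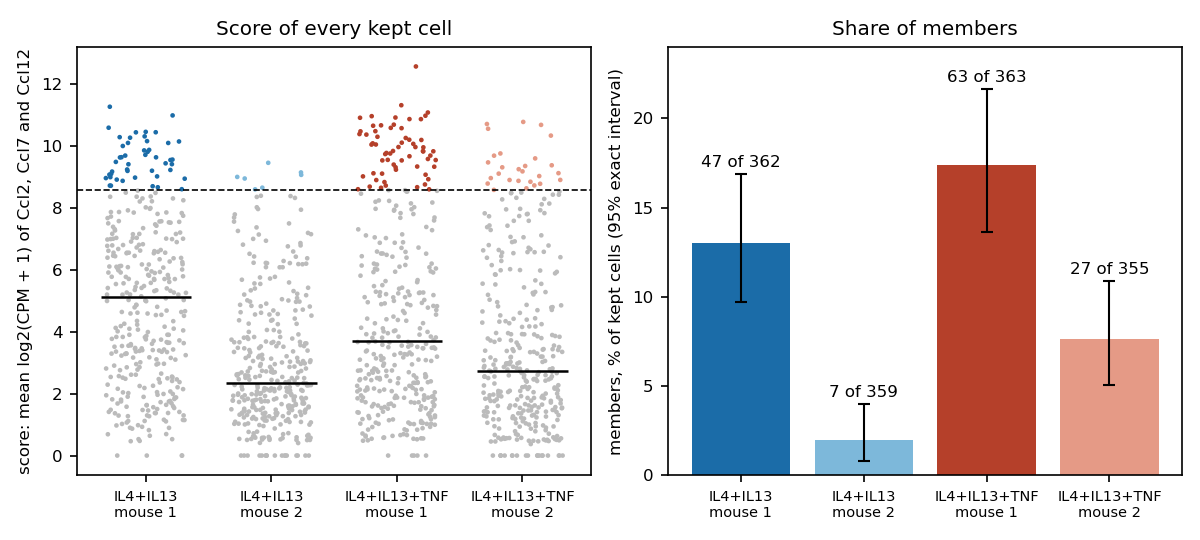
Left, score of every kept cell (mean log2(CPM + 1) of the 3 genes) by sample, with members in colour, other cells in grey, the limit as a dashed line and sample medians as bars. Right, members as a percentage of the kept cells of each sample with 95% exact intervals, from 1.95% in IL4+IL13 mouse 2 to 17.4% in IL4+IL13+TNF mouse 1.

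Which of the 3 genes led differed from member to member. *Ccl7* was the highest of the 3 in 81 members, *Ccl2* in 42 and *Ccl12* in 21. Taken gene by gene, 34 members were in the highest 10% of kept cells for all 3 genes, 92 for at least 2, and 8 for none of them. In the members, the median CPM of *Ccl2* was 1562, 497, 1644 and 737 in the 4 samples. That of *Ccl7* was 2355, 1008, 1681 and 1080. Both were higher in the members of mouse 1 than in those of mouse 2 under each treatment. *Ccl12* had another order, with 121 and 173 CPM in members without TNF and 324 and 466 with TNF. Its medians in members with TNF were above both of those without, but the members of each sample overlapped widely. Since *Ccl12* is part of the score, its levels in members depend on the choice of cells, and this contrast is not a finding.

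**Figure D2:**
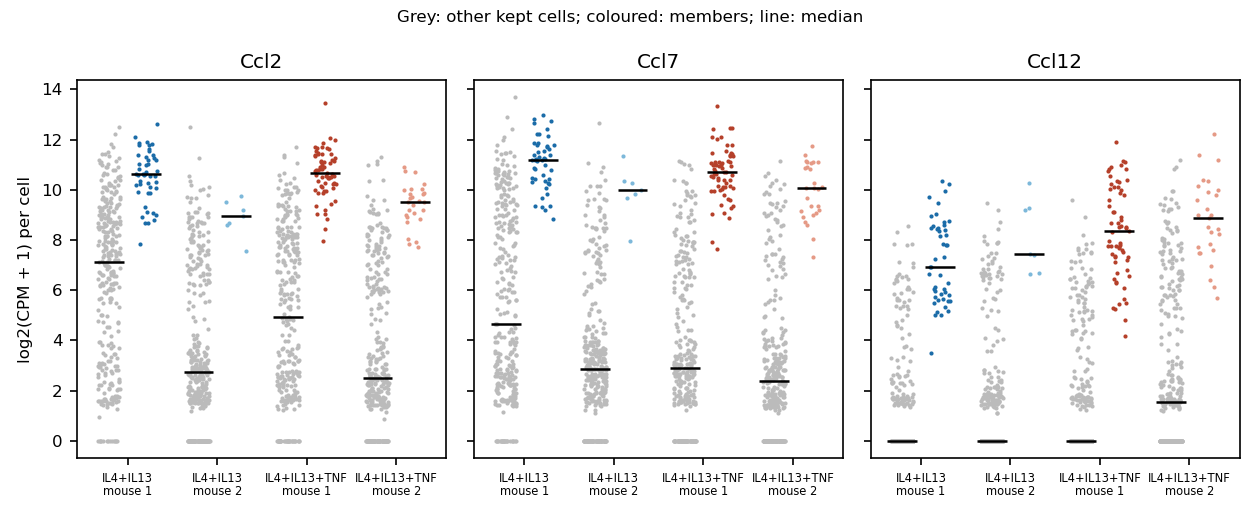
Level of *Ccl2*, *Ccl7* and *Ccl12* in each kept cell, as log2(CPM + 1), by sample, with other cells in grey, members in colour and class medians as bars. Members of mouse 1 sit higher than those of mouse 2 for *Ccl2* and *Ccl7*, and the *Ccl12* medians of members are 121 and 173 CPM without TNF and 324 and 466 with TNF.

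Across the kept cells of a sample the levels of the 3 genes were positively correlated. The Spearman correlation was 0.407 to 0.728 for *Ccl2* and *Ccl7*, 0.236 to 0.510 for *Ccl2* and *Ccl12*, and 0.283 to 0.515 for *Ccl7* and *Ccl12*, over 355 to 363 cells of a sample. These are descriptions over cells of the same culture, which share plates and differ in depth. Cells were also chosen by only 2 of the genes. The third was then compared between chosen and other cells of the same samples with edgeR's quasi-likelihood test on summed counts. The members were chosen with earlier results of these data known. The values of the third gene therefore describe how the 3 genes go together and are not independent support. In cells chosen by *Ccl7* and *Ccl12*, *Ccl2* was higher by 2.19 ± 0.15 on the log2 scale (SE). In cells chosen by *Ccl2* and *Ccl12*, *Ccl7* was higher by 2.89 ± 0.18. Neither passed the adjustment of edgeR over all genes (adjusted p = 0.114 and 0.138), and both passed with DESeq2. For *Ccl12* in cells chosen by *Ccl2* and *Ccl7*, the difference was 1.80 ± 0.63 (edgeR adjusted p = 0.95). It was 0.67 ± 0.58 without TNF and 2.84 ± 0.58 with TNF, and the difference between the treatments, 2.16 ± 0.80, did not pass either (edgeR adjusted p = 1).

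The share of kept cells that were members differed more between the mice than between the treatments. Without TNF, 47 of 362 kept cells of mouse 1 were members, 12.98% (95% exact interval 9.70% to 16.9%), and 7 of 359 of mouse 2, 1.95% (0.787% to 3.98%). With TNF, 63 of 363 of mouse 1 were members, 17.4% (13.6% to 21.7%), and 27 of 355 of mouse 2, 7.61% (5.07% to 10.9%). The intervals cover counting error only. The share was higher with TNF in both mice, by 4.37 percentage points in mouse 1 and 5.66 in mouse 2. The means were 7.47% and 12.5%, a difference of 5.01 points (two-sided exact permutation test over the 4 samples, p = 0.667, where 0.333 is the smallest p that 2 against 2 samples allow). Each mouse was sorted into 2 plates that held both treatments. Within the plates of mouse 1, 13.3% and 12.7% of cells were members without TNF and 16.9% and 17.8% with TNF. Within those of mouse 2, the shares were 2.70% and 1.15% without TNF and 6.86% and 8.33% with TNF. Plate 5, of mouse 2, held only 2 members without TNF. The direction held on all 4 plates, which split the same samples and add no replicate.

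In mouse 1 that direction depended on *Ccl12* and on the limit. With the score made from *Ccl2* and *Ccl7* alone, 20.7% of the kept cells of mouse 1 were members without TNF and 15.2% with TNF. In mouse 2 these shares were 0.836% and 3.10%. The share was thus lower with TNF by 5.57 points in mouse 1 and higher by 2.26 points in mouse 2, and the mean difference was -1.65 points (exact permutation p = 1). With the highest 20% of cells as members, the shares were 29.0% and 26.2% in mouse 1 and 7.80% and 16.9% in mouse 2, differences of -2.83 and 9.10 points (exact permutation p = 1). With the highest 5% the share was higher with TNF in both mice, by 4.94 and 2.25 points. The share describes the upper end of the score only. The median score of all kept cells was lower with TNF in mouse 1, at 3.69 against 5.11 without. In mouse 2 it was higher with TNF, at 2.74 against 2.35.

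Members were next compared with the other cells of the same mouse and treatment. Counts were summed over the cells of each class in each sample, and the quasi-likelihood test of edgeR was run over 17226 genes with the sample as a block and p-values adjusted by Benjamini-Hochberg. The 3 genes of the score were left out. No gene passed an adjusted p of 0.05, and 1151 genes (6.68%) had an unadjusted p under 0.05, 484 of them (2.81%) higher and 667 (3.87%) lower in members. DESeq2 on the same sums called 411 genes, 151 (0.877%) higher and 260 (1.51%) lower, and limma on the mean CPM per cell called none. The genes below are therefore given by their values. For genes found in at least 25% of kept cells at equal depth, the mean CPM per cell was also compared between the classes within each sample. Of 9289 such genes, 1037 (11.2%) were higher in members in 4 of 4 samples and 937 (10.1%) were lower in 4 of 4, against which the counts of each gene list can be read.

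Genes of C1q-high, tissue-resident type macrophages were higher in members. Of the 18 genes on that list 12 were found in at least 25% of kept cells, and 9 of these were higher in 4 of 4 samples and 0 were lower in 4 of 4. The median log2 difference was 0.55, where that of all genes was -0.02. None of the 15 tested passed with edgeR, 11 had an unadjusted p under 0.05, all of them higher, and DESeq2 called 6 of them higher, among them *Mertk*, *C1qb*, *Gas6*, *Maf* and *Cbr2*.

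*C1qb*, a chain of the complement protein C1q, had mean levels of 2064, 2358, 2408 and 2496 CPM in members and 1771, 1750, 1411 and 1568 CPM in other cells. All 4 member values lay above all 4 of the other cells, a log2 difference of 0.59 ± 0.06 (edgeR adjusted p = 0.201). *Gas6*, the ligand through which macrophages bind dying cells, was at 665, 811, 216 and 263 CPM in members and at 493, 410, 79.4 and 112 CPM in other cells. It was higher in each sample, by 1.09 ± 0.09 on the log2 scale (edgeR adjusted p = 0.189), and lower with TNF in both classes. *Maf*, a transcription factor of macrophage identity, was at 247, 536, 158 and 311 CPM in members against 168, 198, 47.9 and 94.3 CPM, a log2 difference of 1.31 ± 0.20. *Cbr2*, a carbonyl reductase, had 177, 182, 107 and 222 CPM in members and 80.7, 75.1, 44.9 and 41.7 CPM in other cells, a log2 difference of 1.79 ± 0.26. It was found in 73.6% of members and 46.0% of other cells. Other genes of the list went less far, such as *Igf1* with a log2 difference of 0.31 ± 0.07, while *Selenop* was higher in 3 of 4 samples.

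The mannose receptor *Mrc1*, which is on the list of IL4-linked M2 genes, went the same way. It was found in 100% of members, with 1540, 2060, 964 and 1322 CPM against 1146, 1315, 473 and 688 CPM in other cells. The log2 difference was 0.80 ± 0.07 (edgeR adjusted p = 0.189), higher on each of the 4 plates under both treatments. The plates split the same samples and add no replicate. Not all of that list did so, and part of it was chosen by the study on these samples. Of its 8 genes found in at least 25% of kept cells, 3 were higher and 1 lower in 4 of 4 samples. Of all 20 genes of the list that were tested, more went lower. By edgeR 4 were higher and 6 lower at an unadjusted p under 0.05, where 0 passed, and DESeq2 called 3 higher and 4 lower. *Retnla*, a secreted M2 product, had 7.81, 39.8, 19.6 and 3.72 CPM in members and 94.5, 548, 7.0 and 26 CPM in other cells. It was lower in 3 samples and higher in IL4+IL13+TNF mouse 1. *Irf4*, a transcription factor induced by IL4, was lower in all 4, with 8.02, 11.1, 9.56 and 2.57 CPM against 24.8, 46.5, 19.1 and 27.6 CPM. *Il10*, an anti-inflammatory cytokine found in only 11.1% of members and 5.17% of other cells, had 16.8, 21.3, 4.38 and 4.32 CPM against 8.42, 3.6, 1.64 and 0.909 CPM.

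Interferon-stimulated genes were higher in members as well. Of 18 genes 14 were found in at least 25% of kept cells, 10 of these were higher in 4 of 4 samples and 0 lower, and the median log2 difference was 0.71. By edgeR 12 of the 18 had an unadjusted p under 0.05, all higher, and 0 passed, and DESeq2 called 9 higher. Summed over the list, the median cell had 1885, 1638, 971 and 1509 CPM among members and 1220, 1135, 853 and 1100 CPM among other cells. The median member was above the median other cell in each sample. The highest single cells did not follow this. The highest member had 19179, 9020, 10523 and 5393 CPM, and the highest other cell had 9564, 18353, 23679 and 11169 CPM.

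The windows before 3 of these genes are shown since they hold the interferon-stimulated response element, a site of STAT2 and IRF factors. Its core was searched on both strands as GAAA, 2 bases of any kind and GAAA, where overlapping matches count, and capitals mark the matches. The core was present in 2.977% of 32851 promoter windows, in 6 of 11 windows of the list that could be matched and in the windows of 0 of 6 MHC class II genes. The 150 bases before the start, from RefSeq on GRCm38.p6, are chr19:34583379-34583528 (+) for *Ifit3*, chr5:120907526-120907675 (-) for *Oas1a* and chr4:156200819-156200968 (-) for *Isg15*.
Ifit3: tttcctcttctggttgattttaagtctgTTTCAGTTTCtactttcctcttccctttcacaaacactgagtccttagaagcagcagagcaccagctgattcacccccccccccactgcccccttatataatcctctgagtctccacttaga
Oas1a: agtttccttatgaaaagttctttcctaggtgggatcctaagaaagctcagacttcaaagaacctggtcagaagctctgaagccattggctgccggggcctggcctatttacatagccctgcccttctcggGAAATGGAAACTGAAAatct
Isg15: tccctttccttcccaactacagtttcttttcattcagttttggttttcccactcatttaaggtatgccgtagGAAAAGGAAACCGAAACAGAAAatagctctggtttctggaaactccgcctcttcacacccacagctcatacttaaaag
A match describes the letters of the window and is not evidence that a factor bound there.

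*Ifit3*, an RNA-binding antiviral protein, was at 119, 175, 58.6 and 56.3 CPM in members and 49.0, 39.6, 26.9 and 28.0 CPM in other cells. Every member value was above every value of the other cells, with a log2 difference of 1.31 ± 0.29 (edgeR adjusted p = 0.547). *Oas1a*, an enzyme that senses double-stranded RNA, had 195, 221, 182 and 204 CPM against 181, 115, 141 and 119 CPM. *Isg15*, a ubiquitin-like modifier, was low, with 2.19, 1.45, 2.09 and 2.39 CPM against 1.05, 1.18, 0.995 and 0.798 CPM, and was found in 24.3% of members and 10.9% of other cells. *Cmpk2*, a mitochondrial nucleotide kinase, had 175, 293, 54.0 and 102 CPM in members and 51.0, 65.4, 31.4 and 32.4 CPM in other cells, a log2 difference of 1.68 ± 0.45. *Irf7*, a transcription factor of the interferon response, differed by 0.73 ± 0.16. *Mx1* and *Ifit2*, also on the list, differed by 1.6 ± 0.24 and 1.42 ± 0.34. *Usp18*, which shuts interferon signalling down, was higher in 3 samples and lower in IL4+IL13+TNF mouse 2, with 131 CPM against 163 CPM.

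MHC class II genes had lower mean levels in members, with the median furthest from 0 of any list of more than 1 tested gene. Of 8 genes, 7 were lower in 4 of 4 samples, where 10.1% of all genes were, and the median log2 difference was -1.68. By edgeR 7 of them had an unadjusted p under 0.05 and 0 passed, and DESeq2 called 4 lower. Summed over the list, the mean cell had 168, 843, 958 and 1484 CPM among members and 1234, 1964, 2672 and 4473 CPM among other cells. The median cell had 99.3, 914, 393 and 406 CPM among members and 139, 348, 848 and 1015 CPM among other cells. The median member was therefore lower in 3 samples and higher in IL4+IL13 mouse 2, with its 7 members. Single other cells reached 31205 to 64726 CPM in each sample, against 1255 to 13957 CPM in members. *H2-Aa*, the alpha chain of I-A, was at 15.1, 54.9, 180 and 364 CPM in members and at 287, 444, 709 and 1344 CPM in other cells. The log2 difference was -2.83 ± 0.53 (edgeR adjusted p = 0.438). *H2-Ab1*, its beta chain, had 19.1, 123, 205 and 396 CPM against 304, 518, 659 and 1119 CPM. *H2-Eb1* had 4.75, 28.4, 88.5 and 185 CPM against 141, 276, 375 and 826 CPM. In each sample these 3 genes were lower in members than in other cells, and both classes had more of them with TNF. *Cd74*, the invariant chain, differed less, with 45.7, 295, 334 and 356 CPM against 261, 325, 635 and 727 CPM. *Ciita*, the factor that switches on these genes, was lower in 3 samples and higher in the 7 members of IL4+IL13 mouse 2, with 117 CPM against 70.3 CPM.

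Genes of *Gpnmb* and lipid-type macrophages were lower in part. Of 13 genes, 7 were lower and 1 higher in 4 of 4 samples, with a median log2 difference of -0.32, and 7 had an unadjusted p under 0.05 in the lower direction by edgeR, where 0 passed and DESeq2 called 4. *Lpl*, the lipase that releases fatty acids from lipoproteins, was at 1397, 530, 1858 and 406 CPM in members and 2496, 1657, 3817 and 1852 CPM in other cells. The log2 difference was -1.41 ± 0.22 (edgeR adjusted p = 0.316). *Pparg*, the nuclear receptor of lipid uptake, had 49.9, 62.2, 18 and 16.1 CPM against 87.2, 77.9, 58.5 and 41.4 CPM. *Atp6v0d2*, a subunit of the lysosomal proton pump, had 311, 118, 356 and 278 CPM against 543, 516, 868 and 673 CPM. *Gpnmb* itself, one of the most abundant transcripts, differed by -0.48 ± 0.12, and *Cd9*, a tetraspanin, by -0.62 ± 0.10. *Fabp5*, a fatty acid carrier, was the gene higher in all 4 samples.

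**Figure D3:**
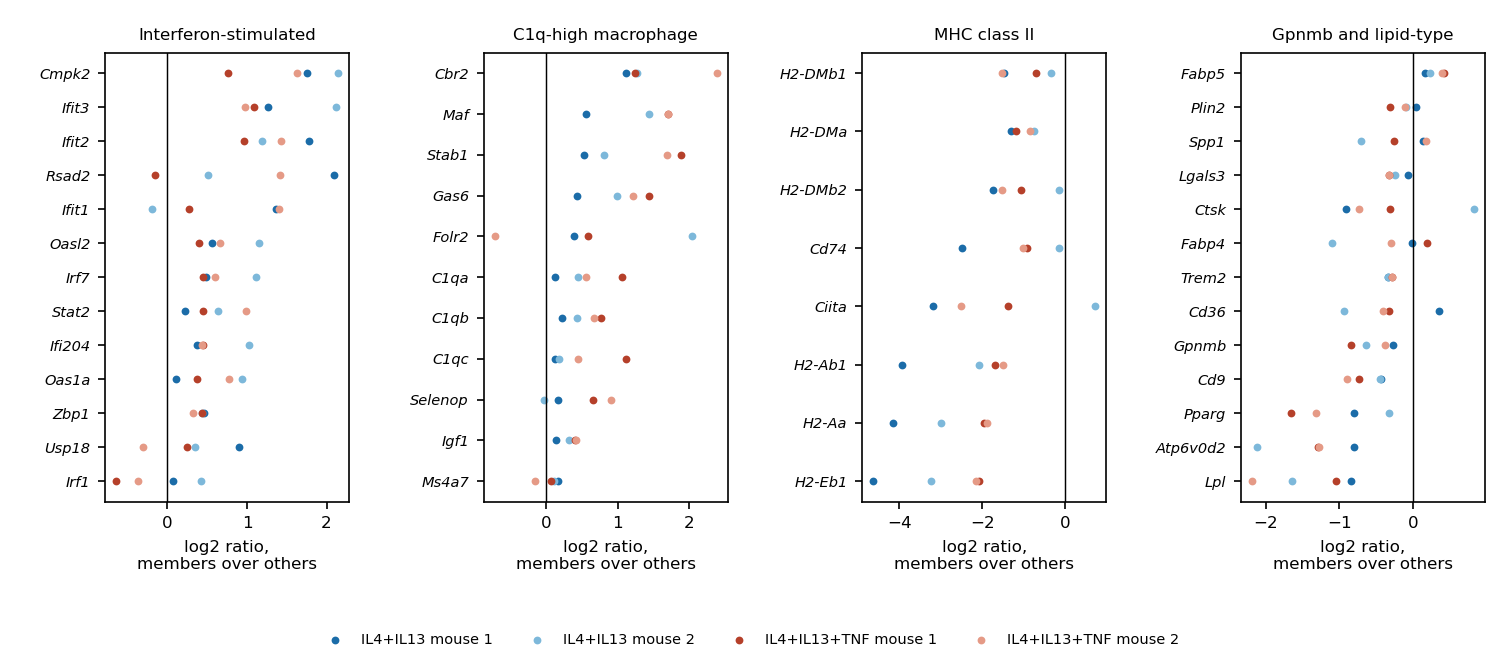
Log2 ratio of mean CPM per cell with 1 CPM added, members over other cells, for genes of 4 lists found in at least 25% of kept cells, 1 point per mouse and treatment. Points right of 0 are higher in members, as for 9 of the 13 interferon-stimulated and 8 of the 11 C1q-high genes drawn in all 4 samples, and points left of 0 are lower, as for 7 of 8 MHC class II and 7 of 13 lipid-type genes.

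Cell cycle genes were somewhat higher in members. Of 15 genes found in at least 25% of kept cells 6 were higher in 4 of 4 samples and 0 lower, with a median log2 difference of 0.35, and 7 of 16 tested had an unadjusted p under 0.05, all higher. By edgeR 0 passed and DESeq2 called 2. *Birc5*, a protein of dividing chromosomes, was at 259, 157, 139 and 112 CPM in members and 170, 96.1, 66.5 and 41.6 CPM in other cells. *Ccnb2*, a mitotic cyclin, had 312, 263, 113 and 73.6 CPM against 180, 163, 57.6 and 36.3 CPM. *Ccnb2* was found in 54.9% of members and 40.3% of other cells. Not all genes of the list went the same way under both treatments. In 4 of the 15 the members were lower than the other cells in both mice without TNF and higher in both with TNF, where 11.6% of all well-detected genes had opposite directions in the treatments. Among the 4 were genes of DNA synthesis. *Rrm2*, a subunit of ribonucleotide reductase, had 92.8, 12.2, 127 and 96.2 CPM in members and 120, 26.5, 62.3 and 34.2 CPM in other cells. *Mcm6*, a subunit of the replicative helicase, had 134, 48.6, 150 and 84.7 CPM against 155, 60.8, 100 and 45.9 CPM. AP-1 and immediate early genes had 0 of 13 higher and 4 lower in 4 of 4 samples, 3 of them *Egr2*, *Atf3* and *Junb*. *Egr2*, a factor induced by IL4 and growth signals, had 20.1, 51.5, 56.6 and 12.3 CPM in members and 54.8, 86, 141 and 107 CPM in other cells. The balance of that list turned with the choice of members, to 3 higher and 2 lower with the highest 10% of each sample, and it was 2 higher and 3 lower with the highest 20%.

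Other chemokines did not follow the score as a group. *Ccl8*, the neighbour of *Ccl12*, had 119, 44.2, 687 and 1347 CPM in members and 21.2, 61.5, 122 and 358 CPM in other cells. It was higher in members of 3 samples and lower in those of IL4+IL13 mouse 2, where 7 cells were measured, with a log2 difference of 1.75 ± 0.55 (edgeR adjusted p = 0.652). *Ccl3* and *Ccl4*, the MIP-1 chemokines, were higher in 4 of 4 samples, by 0.44 ± 0.16 and 0.83 ± 0.23. *Ccl4* had 292, 90.4, 97.9 and 42.4 CPM in members and 134, 69.9, 49.4 and 32.7 CPM in other cells. *Ccl6* was the well-detected gene of that list lower in 4 of 4, with 388, 608, 903 and 737 CPM against 461, 782, 1245 and 1342 CPM. *Pf4*, a CXC chemokine of platelets and macrophages, was higher in 3 of 4 samples.

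*Ccl17* and *Ccl22*, ligands of CCR4 induced by IL4 in dendritic cells and macrophages, were near 0 in members. *Ccl22* had 0, 0.277, 0.135 and 1.82 CPM in members, and 1.21, 0.681, 40.0 and 403 CPM in other cells. The high values lay in other cells with TNF, the same 2 samples in which *Ccr7*, a receptor of migrating dendritic cells, was at 18.1 and 198 CPM in other cells and at 0.139 and 0.977 CPM in members. Of 18 kept cells with at least 10 CPM of *Ccr7*, all with TNF, none was a member. Members made up 17.4% of all kept cells with TNF in mouse 1 and 7.61% in mouse 2. Whether none of 18 differs from these shares was not tested. *Ccl5* had 0.266, 0.333, 17 and 6.57 CPM in members and 2.94, 1.07, 93.4 and 62.5 CPM in other cells. The receptor *Ccr2*, through which the MCP chemokines act, was low in both classes, with 4.76, 3.41, 3.94 and 1.42 CPM in members and 8.10, 20.7, 11.8 and 11.5 CPM in other cells.

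Receptors and transducers of the cytokines did not move as a group. Of 17 well-detected genes 3 were higher and 3 lower in 4 of 4 samples, with a median log2 difference of 0.04. The receptors of TNF went apart. *Tnfrsf1a*, which signals in most cells, had 136, 172, 84.6 and 95.3 CPM in members against 105, 99.4, 75.5 and 75.4 CPM in other cells. *Tnfrsf1b*, the receptor of haematopoietic cells, had 110, 156, 150 and 212 CPM against 163, 289, 253 and 324 CPM, a log2 difference of -0.80 ± 0.10 (edgeR adjusted p = 0.307). NF-kB targets and inflammatory genes had 1 of 15 higher and 2 lower in 4 of 4 samples and a median log2 difference of -0.37, and 0 passed with edgeR.

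Among single genes outside the lists, the widest differences were in the lower direction. None of the genes in this paragraph passed with edgeR, and they had an unadjusted p under 0.01, the same direction in 4 of 4 samples and a fragment in 25% or more of the class with the higher level. *Itgax* (CD11c), an integrin of dendritic cells and some macrophages, had 0.454, 0.207, 18.3 and 0.919 CPM in members and 11.2, 19.9, 101 and 128 CPM in other cells, a log2 difference of -4.93 ± 0.96. *Mmp12*, the macrophage elastase, had 222, 9.99, 251 and 66.7 CPM in members against 614, 429, 1428 and 1191 CPM, a log2 difference of -3.32 ± 0.70 (edgeR adjusted p = 0.526). Every value of the other cells was above every member value. *Mmp12* was found in 85.4% of members and 85.2% of other cells, so the classes differed in its level and hardly in the share of cells with it. *Sdc1*, a syndecan, had 7.87, 0.414, 15.6 and 5.75 CPM against 30.5, 50.8, 57.9 and 59.6 CPM. *Fgfr1*, a growth factor receptor, differed by -2.81 ± 0.67. The genes *Itgax*, *Mmp12*, *Sdc1*, *Fgfr1*, *Irf4*, *H2-Aa*, *H2-Ab1* and *H2-Eb1* were lower in members on each of the 4 plates under both treatments. They were chosen for being lower in 4 of 4 samples. The plates split those same samples, so this adds no replicate, and plate 5 held only 2 members without TNF.

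In the higher direction were genes of the lists as well. *Tfrc*, the transferrin receptor, is on the list of IL4-linked M2 genes. It had 249, 725, 358 and 574 CPM in members and 166, 351, 214 and 346 CPM in other cells, a log2 difference of 1.34 ± 0.32 (edgeR adjusted p = 0.567). *Fcgr4*, an activating Fc receptor, had 39.0, 97.5, 17.7 and 33.0 CPM against 19.4, 29.3, 8.91 and 13.6 CPM. *Fcgr1*, the high-affinity Fc receptor, which is on a list of macrophage identity genes, had 96.6, 150, 35.8 and 34.7 CPM against 60.9, 68.8, 15.5 and 20.2 CPM. Both Fc receptors were higher in members of each sample and lower with TNF in both classes. *Ms4a6b*, a membrane protein of macrophages, differed by 1.65 ± 0.41, *Nlrp3*, the sensor of an inflammasome, by 1.56 ± 0.39, and *Nrm*, *Arhgap23* and *Aldh1l1* by 1.64 ± 0.22, 1.46 ± 0.35 and 1.28 ± 0.32.

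The genes whose level followed the score most closely across cells were sought without regard to the classes. By the mean of the Spearman correlations in the 4 samples, over 355 to 363 cells each, they were *Dab2* and *Mrc1* (0.41 each), *Ccl8* and *Sdc4* (0.37 each), *Maf* and *Stab1* (0.34 each), *Ms4a6c* (0.33), *Gas6* (0.32), and *Ms4a6d* and *Cbr2* (0.31 each). *Dab2*, an adaptor of endocytosis, had 635, 472, 365 and 271 CPM in members and 455, 247, 109 and 91.7 CPM in other cells. *Stab1*, a scavenger receptor, had 163, 203, 135 and 200 CPM against 112, 116, 35.7 and 61.6 CPM. The correlation was weakest in IL4+IL13 mouse 2 for *Maf*, 0.19 against 0.36 to 0.43, and for *Mrc1*, 0.24 against 0.38 to 0.54. These correlations carry no test, since cells of a sample share their culture and plates.

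The member effect was then estimated within each treatment and compared between treatments. With edgeR, 0 of 17226 genes passed without TNF (1082, or 6.28%, at an unadjusted p under 0.05, and 297 called by DESeq2) and 0 with TNF (545, or 3.16%, and 118 by DESeq2). The interaction of class and treatment called 0 as well (478, or 2.77%, and 31 by DESeq2), so none of the differences between treatments given here passed the test. *H2-Aa* differed between members and other cells by -3.89 ± 0.36 without TNF and -1.86 ± 0.32 with TNF, and *Ifit3* by 1.84 ± 0.28 and 0.78 ± 0.27. *Stab1* differed by 0.47 ± 0.24 without TNF and 1.74 ± 0.24 with TNF. *Mrc1*, at 0.68 ± 0.07 and 0.92 ± 0.07, *Gas6*, at 0.96 ± 0.10 and 1.21 ± 0.10, and *Mmp12*, at -3.26 ± 1.14 and -3.36 ± 1.06, had close values under both.

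Members with TNF were finally compared with members without it. By edgeR 0 of 14758 genes passed, 563 (3.81%) had an unadjusted p under 0.05, and DESeq2 called 87, 47 of them higher and 40 lower with TNF. The fit with the mouse as a block called 0 too. One of the sums without TNF came from 7 cells. Among 9289 well-detected genes, 27.1% were higher with TNF in the members of both mice and 29.4% were lower.

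NF-kB targets and inflammatory genes were higher with TNF in members. Of 15 well-detected genes of that list 14 were higher in both mice and 0 lower, and the median log2 difference was 2.96 in members and 2.22 in the other cells. *Acod1*, the enzyme that makes itaconate, had 0.364 and 0.693 CPM in members without TNF and 158 and 270 CPM with TNF, a log2 difference of 9.38 ± 0.69 (edgeR adjusted p = 0.256). *Saa3*, an acute phase protein, had 0.308 and 0 CPM without TNF and 232 and 206 CPM with TNF. *C3*, the central complement component, which is not on the list, had 4.21 and 1.35 CPM without TNF and 656 and 1009 CPM with TNF. For these 3 genes the members with and without TNF did not overlap between samples, and behind the values without TNF were 10, 7 and 87 fragments in all. *Gpr84*, a receptor for medium-chain fatty acids, had 0 fragments in the 54 members without TNF and 19.97 and 17.6 CPM in members with TNF, at least 196-fold higher against a floor of 3 fragments over all members without TNF. *Cxcl2*, a neutrophil chemokine, had 0.681 and 1.96 CPM without TNF and 427 and 63.4 CPM with TNF. *Nfkbia*, the inhibitor of NF-kB, had 116 and 73.2 CPM without TNF and 548 and 309 CPM with TNF. *Cd40* was the gene of the list that did not go one way, with 31.1 and 45.7 CPM without TNF and 42.8 and 33.5 CPM with TNF.

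**Figure D4:**
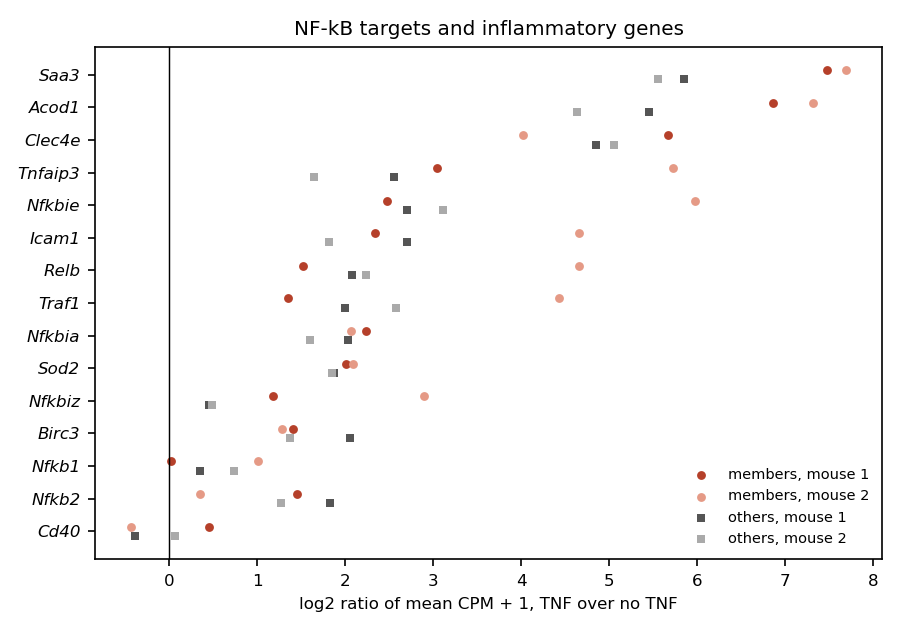
Log2 ratio of mean CPM per cell with 1 CPM added, TNF over no TNF, for the 15 well-detected NF-kB targets and inflammatory genes, with members as circles and other cells as squares, 1 point per mouse. All but *Cd40* lie right of 0 in the members of both mice.

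Interferon-stimulated genes went the other way inside the members. In both mice 10 of 14 well-detected genes were lower with TNF, where 29.4% of all genes were, and 0 were higher, with a median log2 difference of -0.65. In the other cells the median was 0.01. Summed over the list, however, the median cell was lower with TNF in both classes of both mice. The median other cell had 853 CPM with TNF against 1220 without in mouse 1, and 1100 against 1135 in mouse 2. The median member had 971 CPM with TNF against 1885 without in mouse 1, and 1509 against 1638 in mouse 2. The last of these came from 7 cells. *Cmpk2* was at 175 and 293 CPM in members without TNF and 54.0 and 102 CPM with TNF, and *Ifit3* at 119 and 175 CPM and at 58.6 and 56.3 CPM. For both genes the members with TNF were lower in each mouse and still above the other cells of their sample. *Cmpk2* differed by -1.77 ± 0.41 in members (edgeR adjusted p = 1) and -0.30 in other cells (edgeR adjusted p = 0.90). The difference between the classes of this list was tested gene by gene only, by the interaction above, in which none passed.

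Genes of the C1q-high list were divided, with 4 of 12 higher and 6 lower with TNF in the members of both mice. *C1qa* was higher, at 114 and 76.0 CPM without TNF and 383 and 260 CPM with TNF, and *Gas6* lower. None of the 8 well-detected IL4-linked M2 genes was higher in both mice and 3 were lower, and part of that list was chosen by the study on these samples. Of 8 MHC class II genes 4 were higher with TNF in both mice and 0 lower. Members with TNF thus had 180 and 364 CPM of *H2-Aa*, which the other cells without TNF had at 287 and 444 CPM. The lowest log2 values with TNF included those of *Itgb7*, an integrin chain, from 34.6 and 195 CPM to 16.2 and 9.18 CPM, and *Cd28*, a costimulatory receptor, from 299 and 1015 CPM to 89.6 and 129 CPM. *Capn5*, *Msx3* and *Arhgap18* were lower by 3.02 ± 0.69, 2.96 ± 0.46 and 2.51 ± 0.50 on the log2 scale.

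In the other cells, edgeR called 1 of 17232 genes (0.0058%, and 8.51% at an unadjusted p under 0.05) for TNF, *Clec4e*, a C-type lectin receptor, with a log2 difference of 5.12 (edgeR adjusted p = 0.0126). In members *Clec4e* differed by 4.85 ± 0.56, from 13.5 and 29.4 CPM without TNF to 737 and 494 CPM with TNF. The number of cells behind a sum was 300 to 352 for the other cells and 7 to 63 for members. With the mouse as a block 566 genes were called in the other cells.

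Markers of other cell types were low in members. Summed over a list and averaged over the cells of a sample, T, B and NK cell markers reached 0.0876 to 0.681 CPM in members and 0.217 to 0.318 CPM in other cells, with 5 of 7 markers at 0 in all members. Mast cell and basophil markers reached 0 to 0.123 CPM, with 4 of 5 at 0, and erythroid markers 0 to 0.589 CPM, with 3 of 5 at 0. Fibroblast and stromal markers were at 0.515 to 4.96 CPM in members and 0.664 to 2.38 CPM in other cells. No marker of these 6 was at 0 in all members, and the highest member, of IL4+IL13+TNF mouse 1, reached 222 CPM. Neutrophil and precursor markers were at 10.6 to 126 CPM in members and 15.3 to 79.5 CPM in other cells, with *Ngp*, *Camp*, *Ltf* and *Elane* at 0 in all members and most of the sum from *Csf3r*, a receptor that macrophages also transcribe. Dendritic cell markers were at 7.35 to 11.97 CPM in members and 9.07 to 221 CPM in other cells. Without the 18 cells with *Ccr7*, a choice made after the data were seen, *Itgax* differed by -4.94 and *H2-Aa* by -2.70 on the log2 scale, against -4.93 and -2.83 with them. The counts of MHC class II and lipid-type genes lower in 4 of 4 samples were then 7 of 8 and 7 of 13, as with them, and the part of these cells in the *Ccl17* and *Ccl22* values was not tested.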

How the data were processed

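The values deposited by the authors are raw counts, the fragments of each well on each gene. Per the methods and labels, reads went through gsnap against mm10 and then featureCounts 1.6.3 with Ensembl 98 genes and no use of strand, so overlapping genes and close copies are uncertain. PCR copies are counted. Of 1528 samples, 4 whose labels give no mouse stayed out, as did 11 columns of no assigned well. The 92 spike-ins stayed out of totals. The table has 55421 genes, 55154 with a symbol. No doublet caller was run on singly sorted cells.

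Counts were summed per class and sample and tested with edgeR 4.0.16 (quasi-likelihood test, TMM, Benjamini-Hochberg, threshold 0.05) in R 4.3.3, with the sample as a block for members and treatment alone for TNF. Tested genes were found in at least 5% of either class and passed filterByExpr. The SE is the log2 difference over the root of F. The alternatives were DESeq2 1.42.0, limma 3.58.1 on log2(CPM + 1), no gene filter, no block, plain library sizes for TMM, other members (the highest 5% or 20%, 10% within each sample, scores without 1 gene, with 10 CPM added or at 200000 fragments), cells kept within 3 median absolute deviations, and each sample left out. The fits for members against other cells were run on simulated sums with known changes, where recovery was required only at a low spread. The power at the spread of these samples is not given here. Labels give the same mouse to both treatments, which pairs the samples, and deviations from the treatment means correlated by 0.134 over 14761 genes in member sums and 0.523 over 17235 in the others.

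Equal depth means each cell thinned to 200000 fragments. P-values measure only the spread between these samples. The members and the gene lists were chosen with earlier results of these data known. Named genes were those of the lists, the 12 highest and 8 lowest log2 differences between members and other cells, the 5 highest and 5 lowest for TNF, all with 1 direction in every sample and a fragment in 25% or more of the class with the higher level, and the 10 closest to the score. Since none passed, places were filled at an unadjusted p under 0.01, which for members against other cells was decided after the values were seen. Some genes of the lists, counted in them, are not reported here by name.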

Additional observations from a re-analysis of the deposited data

Results flagged for a closer look

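Of 164 well-detected genes of the lists and named genes, 15 had a member difference in opposite directions under the treatments, the same in both mice of each, against 11.6% of all well-detected genes. Given here are those with an unadjusted p under 0.05 for the difference and *Arhgap18*, which is named above. The difference of the member effect, with TNF minus without, was 2.99 for *Saa3*, 2.81 for *C3*, 2.13 for *Rrm2*, 0.86 for *Ifngr1*, 0.80 for *Mcm6*, 0.66 for *Lyz2*, -1.08 for *Irf1* and -1.35 for *Arhgap18* on the log2 scale. None passed the interaction test of edgeR (adjusted p = 1 for each), and DESeq2 called *Rrm2*. *Lyz2* had 10120 and 8695 CPM in members and 11861 and 12689 CPM in other cells without TNF, and 27297 and 26051 CPM against 21824 and 22226 CPM with TNF. *Saa3* had 0.308 and 0 CPM in members and 0.703 and 1.44 CPM in other cells without TNF, and 232 and 206 CPM in members and 97.5 and 114 CPM in other cells with TNF. *C3* had 4.21 and 1.35 CPM in members and 8.11 and 36.9 CPM in other cells without TNF, and 656 and 1009 CPM against 555 and 817 CPM with TNF. *Arhgap18* had 97.9 and 155 CPM in members and 73.7 and 58.1 CPM in other cells without TNF, and 21.2 and 20.6 CPM against 31.6 and 25.9 CPM with TNF.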

How the results depend on the processing

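With DESeq2, 411 genes were called for members against other cells, 297 without TNF, 118 with TNF, 31 for the interaction, 87 for TNF in members and 605 for TNF in the other cells. Without a gene filter, 6 were called for members without TNF, 17 with TNF, 131 for TNF in members and 186 in the other cells. With the highest 20% of cells as members the counts were 1 in both treatments, 1 without TNF and 3 with TNF, and cells kept within 3 median absolute deviations gave 1 for both treatments. edgeR with bias-adjusted deviances, chosen after seeing the data, called 3 for TNF in members, and limma called 3 for TNF in the other cells. The replicate block raised TNF in the other cells to 566 and changed no call for TNF in members. Leaving out each sample gave 0 to 1 for members against other cells and 3 to 19 for TNF in the other cells. With DESeq2 the third gene was called for *Ccl2* at 2.21 and *Ccl7* at 2.91. The difference in the share of members turned to -1.65 points with a score without *Ccl12* and ranged over the samples left out from -0.503 points without IL4+IL13 mouse 2 to 10.5 points without IL4+IL13 mouse 1, with 0.139 points without IL4+IL13+TNF mouse 1; each of these sets both mice of one treatment against 1 mouse of the other. AP-1 genes numbered 3 higher and 2 lower in every sample with members chosen within each sample, and 3 and 4 without IL4+IL13 mouse 2. *Ccl5* turned to 0.24 with the highest 20%, and the difference between treatments for *Arhgap18* to 0.13 with the highest 5%. Of the values of named genes under the alternatives, *Ccl5* and *Arhgap18* included, 1445 kept direction and side of the threshold, 66 passed under an alternative and 2 turned. Without IL4+IL13 mouse 2, whose members were 7 cells, 11 interferon and 10 C1q-high genes were higher and 8 MHC class II and 8 lipid-type genes lower in the 3 remaining samples, where 21.3% of all genes were higher and 15.4% lower. With members chosen within each sample these were 7, 8, 8 and 7, beside 13% and 9.80%. PCR copies make the precision of these sums lower than their totals give.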
